A study of Mus musculus with 30 samples.

Results

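The small RNA profile of the mouse spleen was compared between Ftsj1-deficient and wild-type animals in 6 libraries, 3 of each genotype. All 2194 named features of the spleen table were described, out of the 2194 that each of the 5 organ tables of the series holds, and the 6 spleen libraries were 6 of 30. The groups were whole Spleen tissue of male Ftsj1_DF mice and of male WT mice, all aged 4 months, with no treatment, and all 6 libraries carried the same batch label. In heart, kidney and liver, used below for comparison, a single WT library each carried batch label 2, and all other libraries of the series carried label 1. Of the 3 mice of each genotype, 2 came from a set of 4 brothers and 1 from a second pair of brothers, so each mouse is a separate animal but not an unrelated one. How the Ftsj1 allele was made is not given in the sources used here.

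MicroRNAs are short RNAs cut from hairpin precursors that pair with messenger RNAs, mainly through a seed at bases 2 to 8, and lower their translation or stability. The Ftsj1 protein methylates the ribose 2'-O position of bases in the anticodon loop of certain tRNAs. The spleen filters blood and holds B and T lymphocytes, macrophages and red cells in a framework of vessels, smooth muscle and reticular fibroblasts. Among microRNAs known from these cells, miR-150 is abundant in mature lymphocytes, miR-155 rises when lymphocytes and macrophages are activated, and miR-223 is a myeloid microRNA. Whole tissue cannot separate a change in the number of such cells from a change in RNA per cell.

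Mature sequences from RefSeq (GRCm38.p6) are shown for the microRNAs that the description turns on, 5′ to 3′, with the seed in capitals. RefSeq held a sequence for 1023 of the 1189 features with a Mir or Mirlet symbol and for 0 of the 1004 with a Gm symbol. The first set gives leading members of the most abundant families.
miR-21a-5p: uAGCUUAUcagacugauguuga
let-7g-5p: uGAGGUAGuaguuuguacaguu
miR-26a-5p: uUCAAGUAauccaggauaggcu
miR-16-5p: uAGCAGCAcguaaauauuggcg

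The second set gives microRNAs of leukocytes. The last 2 lines are shown because miR-142b is complementary to miR-142a-3p over all 20 of its bases, the precursors lying on opposite strands of one locus.
miR-155-5p: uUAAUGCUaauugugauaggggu
miR-223-3p: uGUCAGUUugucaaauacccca
miR-146a-5p: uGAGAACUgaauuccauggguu
miR-142a-3p: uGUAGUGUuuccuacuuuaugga
miR-142b: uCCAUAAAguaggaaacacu

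The third set gives microRNAs of precursors with an unadjusted p below 0.05 at a mean of at least 10 that are described further on, with miR-7a-5p beside let-7j for comparison. The hairpin named Mir7j encodes a let-7-like sequence, let-7j, not miR-7. Counted from 1 at the 5′ end and over 22 bases, let-7j differs from let-7c-5p by G8U in the seed and by G12U, A17G, U18C and G19U after it.
let-7c-5p: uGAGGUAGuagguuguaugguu
let-7j: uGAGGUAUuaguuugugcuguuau
miR-7a-5p: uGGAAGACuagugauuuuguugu
miR-19b-3p: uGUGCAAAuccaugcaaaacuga
miR-103-3p: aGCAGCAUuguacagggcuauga
miR-181b-5p: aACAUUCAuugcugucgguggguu
miR-7015-5p: uCUGUGCAguaggcuguggguuc
miR-7015-3p: uCUCACUGuccucugcacuag

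Every mean, log2 fold change, standard error (SE) and p-value below comes from the authors' deposited table for spleen unless stated otherwise. The mean is the average over the 6 libraries of reads divided by a size factor (a scaling for depth), called the mean normalized count, and a share is its percentage of the sum over all named features, 10737328. That table holds no value per library, and it does not name the genotype in the numerator. A positive log2 fold change therefore means higher in 1 genotype, called the positive side, and a negative one higher in the other. The Ftsj1 transcript is not among the features, which leaves the genotype labels without a check here.

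The spleen profile was dominated by a few precursors. Mir143, a microRNA of smooth muscle and other mesenchymal cells, took 25.4% of the summed mean, and Mir21a, expressed in many cell types and high in fibroblasts and myeloid cells, took 19.5%. Of the features in the authors' deposited table, 4 made up 50% of the total, 39 made up 90% and 123 made up 99%. Behind the leading pair came Mirlet7g at 4.24%, Mir26a-1 at 3.37%, Mirlet7i at 2.79%, Mir30d at 2.53% and Mir26b at 2.28%. At the other end, 986 of the 2194 named features were listed at 0, which left 1208 with a test: 899 with Mir or Mirlet symbols, 308 with Gm symbols and Snord43, a small nucleolar RNA at 0.786%.

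**Figure D1:**
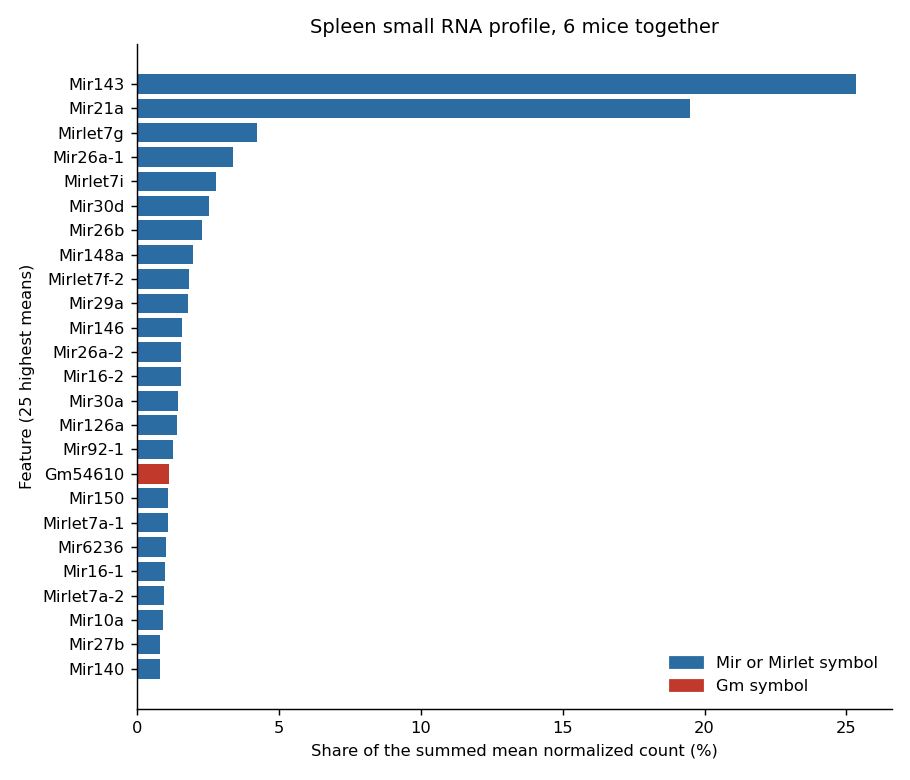
Shares of the summed mean normalized count (horizontal axis, %) of the 25 features with the highest means in spleen, over 6 libraries of both genotypes. Mir143 at 25.4% and Mir21a at 19.5% stand apart from Mirlet7g at 4.24%, and Gm54610 (red) is the only Gm symbol among the 25.

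The measured members of the leukocyte list were at their highest in the tissue labelled spleen. The leukocyte list summed to 3.56% of the spleen total, 11.0 times its share in heart, the next organ at 0.324%. Mir146, the precursor of miR-146a that restrains NF-kB signalling, led it at 1.58%, followed by Mir150 at 1.09% and Mir142b at 0.367%. Mir155 stood at 0.195% and Mir223 at 0.183%. Each was highest in spleen: Mir150 took 0.119% in heart and 0.0558% in brain, and Mir223 took 0.0322% in heart. Mir181a-1 and Mir181b-1, planned as further leukocyte markers, were kept in the miR-181 list instead. Both were higher in brain: Mir181a-1 took 0.609% in spleen against 1.95%, and Mir181b-1 took 0.0308% against 0.247%. The red cell microRNA Mir144 was not highest here, at 0.139% against 0.228% in heart. These shares are descriptions, since each rests on 1 mean per organ and the markers were picked with the profile known.

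Some other lists were also largest in spleen. The miR-17/92 list with its paralog clusters, which promote growth of lymphocyte precursors and other dividing cells, summed to 2.33%, against 0.873% in heart, the next organ. The miR-15/16 list, whose members restrain the cell cycle, summed to 2.98% against 1.59% in heart. The vessel and smooth muscle list took 27.1% against 24.9% in heart, nearly all of it Mir143. Its other abundant members were not highest here: Mir126a took 1.40% against 5.31% in heart, and Mir145a took 0.353% against 0.453%. The let-7 and miR-98 list took 12.4%, below its 19.3% in brain, and the miR-30 list took 4.98%, below its 18.4% in kidney.

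MicroRNAs known from other tissues were present at low shares. The pancreas list (Mir375 of islets, Mir216a, Mir216b and Mir217 of acinar cells) summed to 0.322% in spleen and to 0.0439% in liver, the next organ. The hepatocyte and gut list summed to 0.248% in spleen against 33.8% in liver. Of its members, Mir122, the main microRNA of hepatocytes, took 0.0389% in spleen against 26.2% in liver. Mir802, the most abundant member in spleen, went the other way, at 0.0938% against 0.0756% in liver. Mir124a-3 and Mir1a-1, of neurons and striated muscle, took 0.0017% and 0.0144%. The miR-290 and miR-302 list of pluripotent cells had 0 of 14 members at a mean of 10 or more, and 8 of the 14 were listed at 0.

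Some well-known blood cell precursors were listed at 0. Mir142, which encodes miR-142a, and Mir451a, a microRNA of red cells, were at 0 in all 5 organs, while Mir142b on the strand opposite Mir142 had a mean of 39411. Among the 55 precursors that overlap another precursor on the opposite strand in the GENCODE M21 annotation, 38 were at 0 in spleen (69.1%), 35 of them in every organ, against 252 of 1119 other precursors (22.5%). Mir126a, of endothelium, ran the other way, with a mean of 150781 while the opposite Mir126b was at 0. Whether the counting used strand is not given in the sources used here, so reads of such pairs cannot be told apart, and the part of overlap in these zeros was not tested. The 38 include Mir30e, Mir191, Mirlet7e and Mirlet7f-1, members of abundant families that were at 0 in every organ.

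The genotype contrast passed the threshold for 0 of 1208 features in the authors' deposited table, which is 0.0% of those tested (DESeq2, adjusted p below 0.05). The smallest adjusted p was 0.988. At an unadjusted p below 0.05 there were 42 features, 3.48% of those tested, with 32 positive (2.65%) and 10 negative (0.828%). Over all 1208 features 605 log2 fold changes were positive and 603 negative, with a median of 0.00. With 3 mice per genotype, each p-value measures the effect against the spread between these mice.

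The precision of the contrast depended on abundance. In the class with means of 100000 and above, which holds 21 features and 79.7% of the total, the median SE was 0.23, so that a typical 95% interval reached 0.45 to either side of the log2 fold change. The median SE was 0.24 for means of 1000 to 10000, 0.76 for means of 10 to 100 and 2.29 for means of 1 to 10. For 212 features, which hold 69.6% of the total, the whole interval lay between a halving and a 2-fold rise. Of the 159 features with a mean of at least 1000, 132 met that bound, and of those with a mean of 10 to 100, 6 did.

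**Figure D2:**
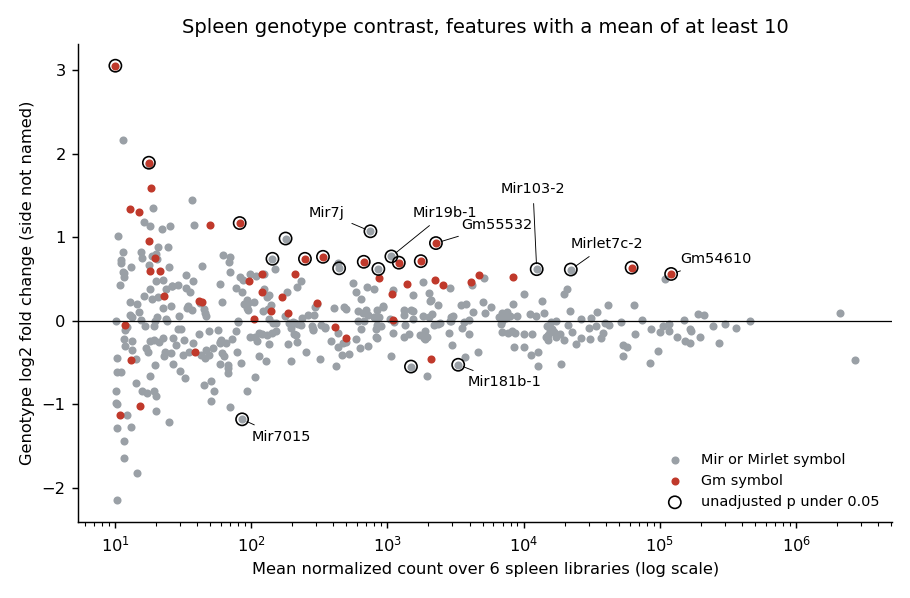
Log2 fold change between the genotypes (vertical axis, numerator not named) against the mean normalized count (horizontal axis, log scale) for the 450 features with a mean of at least 10; rings mark an unadjusted p below 0.05. The red points, Gm symbols, lie above 0 for 40 of 48, and Mir7015 and Mir181b-1 are 2 of the 3 ringed features below 0.

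Differences among the most abundant features were typically small, with a median absolute log2 fold change of 0.10 at means of 100000 and above. Gm54610, described below, was the highest of them at 0.56 (SE 0.25, the authors' p = 0.0265). No other feature of that class had an unadjusted p below 0.05. Mir143 had a log2 fold change of -0.47 (SE 0.30, the authors' p = 0.114), with an interval from -1.06 to 0.11 that is the widest among the 21 features of that class. Mir21a stood at 0.10 (SE 0.23), Mirlet7g at 0.00 (SE 0.21) and Mir26a-1 at -0.09 (SE 0.21). Of the 21 features with a mean of 100000 and above, 7 were positive and 14 negative, with a median of -0.07. Between 10000 and 100000, 18 were positive and 39 negative, and between 1000 and 10000 the split turned to 49 positive and 32 negative. The sign thus leaned with abundance, but the class medians stayed between -0.10 and 0.05, below a typical SE.

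No member of the leukocyte list reached the threshold. Of its 7 members with a mean of at least 10, 1 was positive and 6 negative, with a median of -0.05 and 0 members at an unadjusted p below 0.05. Mir150 had -0.12 (SE 0.22), with an interval from -0.54 to 0.31. Mir155 had -0.05 (SE 0.22) and Mir146 had -0.12 (SE 0.26). Mir223 was the positive member, at 0.32 (SE 0.21, the authors' p = 0.130). Outside this list, the planned leukocyte marker Mir181b-1 had -0.53 (SE 0.25, the authors' p = 0.0358, adjusted p 0.988). Mir181a-1, also planned as such a marker, had -0.15 (SE 0.21). Mir144 had -0.22 (SE 0.29).

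Framework lists likewise gave no member below an unadjusted p of 0.05. The fibroblast list had 5 of 5 members positive, from 0.06 to 0.12, each well inside its SE. Among vessel and smooth muscle members, Mir126a had 0.01 (SE 0.23) and Mir145a, which is transcribed with Mir143, had -0.14 (SE 0.24). The miR-99/100 list was negative in 3 of 3 members, with Mir100 at -0.41 (SE 0.22, the authors' p = 0.0659) and Mir99b at -0.37 (SE 0.21, the authors' p = 0.0757). Mir125a, which shares a transcript with Mir99b and Mirlet7e, had 0.39 (SE 0.25, the authors' p = 0.127), and the miR-125 list was positive in 3 of 3 members. Mir10a and Mir10b, Hox-cluster microRNAs, had -0.36 (SE 0.24) and -0.31 (SE 0.22).

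**Figure D3:**
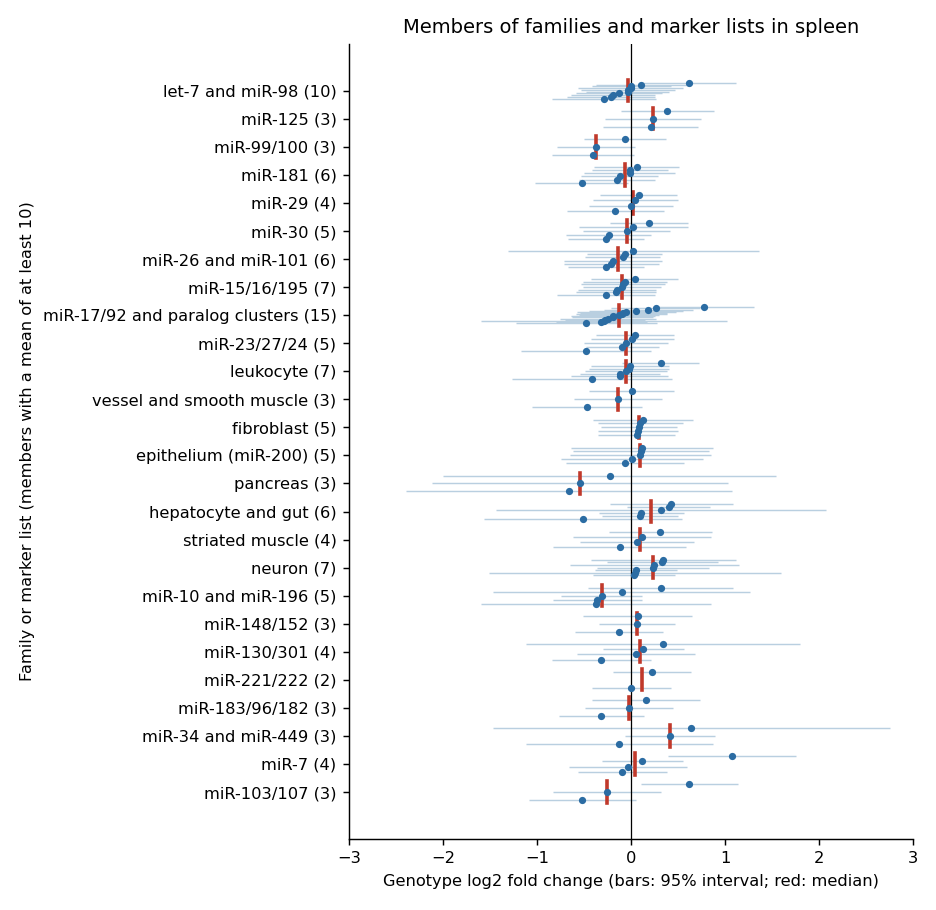
Log2 fold change of each member with a mean of at least 10 (points, with 95% intervals) in 26 families and marker lists; red bars are list medians and numbers in brackets count members. Medians sit close to 0 for the let-7, miR-30 and leukocyte lists, and the intervals of the 3 pancreas members are wide.

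The let-7 family, tumour-restraining microRNAs that mark differentiated cells, had 3 positive and 7 negative members, with a median of -0.04. Mirlet7g, Mirlet7i, Mirlet7f-2 and Mirlet7a-1, which together lead the list, lay between -0.19 and 0.00. Mirlet7c-2 was the member with an unadjusted p below 0.05, at 0.61 (SE 0.26, the authors' p = 0.0165, interval 0.11 to 1.12). By shared seed, the 10 features that RefSeq matched to GAGGUAG, which include Mir1961 but not Mirlet7a-2, had a median of -0.02. Mir7j, whose seed is GAGGUAU, had the smallest p of the table, 1.07 (SE 0.35, the authors' p = 0.00193) at a mean of 749.5. Mir5100, outside both families with the seed CGAAUCC, had 0.99 (SE 0.41) at a mean of 178.6. The miR-7 precursors proper lay closer to 0: Mir7-1 had -0.09 (SE 0.24) and Mir7-2 had 0.12 (SE 0.22).

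Seed families were formed from symbols that RefSeq matched, with at least 3 members at a mean of at least 10. Of those with 1 sign throughout, 3 were negative and 2 positive. Families with unmatched symbols are missing or incomplete: Mir124a-1, Mir124a-2 and Mir124a-3, positive at 0.04, 0.25 and 0.34, are not among them. The 6 precursors with the miR-92/25 seed AUUGCAC (Mir92-1, Mir25, Mir92-2, Mir32, Mir363, Mir92b) were all negative, with a median of -0.19. The 3 with the miR-26 seed UCAAGUA were negative, with a median of -0.09, and hold 7.21% of the total. The 3 with the miR-99/100 seed ACCCGUA, described above as a list, had the median farthest from 0, -0.37. The positive families were CAGUAGU (Mir199a-1, Mir199a-2, Mir199b) and AAUACUG (Mir200b, Mir200c, Mir429), with medians of 0.08 and 0.10. The 6 precursors with the miR-15/16 seed AGCAGCA were mixed, with 5 negative and a median of -0.09. No precursor in these 6 seed groups had an unadjusted p below 0.05.

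Genomic clusters were described as runs of precursors on 1 strand with gaps of at most 10 kb, with at least 3 members at a mean of 10 or more, and 10 were found. The Mir17 to Mir92-1 cluster had 4 positive and 2 negative members: Mir19b-1 stood at 0.77 (SE 0.27, the authors' p = 0.00462) while Mir92-1, by far its most abundant member, had -0.20 (SE 0.22). Its paralogs had negative members alone, 6 of 6 in the Mir363 to Mir106a cluster with a median of -0.22, and 3 of 3 in the Mir25 to Mir106b cluster with a median of -0.28. The Mir500 to Mir532 cluster on the X chromosome had 5 of 5 negative, with a median of -0.37. Members of 1 cluster come from shared or neighbouring transcripts, so they are not independent.

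The 2 large imprinted or repeat-rich clusters were mixed. In the Mir379 to Mir3072 cluster of the Dlk1-Dio3 domain, 13 of 23 members were positive, with a median of 0.06. Mir379, its most abundant member, had -0.55 (SE 0.27, the authors' p = 0.0433). In the Mir466m to Mir669h cluster, an intronic array in Sfmbt2, 15 of 21 were negative, with a median of -0.19. The miR-200 cluster of epithelium, Mir200b, Mir200a and Mir429, lay between 0.10 and 0.12.

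Copies of 1 mature microRNA did not always give the same fold change. Among matched symbols, RefSeq assigns 28 mature sequences to more than 1 precursor with a mean of at least 10. The copies had opposite signs in 8 of these sets, with a median difference of 0.26 on the log2 scale. Pairs without such a match are left out, such as Mirlet7a-1 with Mirlet7a-2, and Mir133a-1 with Mir133a-2 (-0.12 and 0.06). Mir92-1 and Mir92-2 differed by less than 0.01, as did no other set. Mir103-1 and Mir103-2, in introns of Pank genes, stood at -0.52 (SE 0.29, the authors' p = 0.0742) and 0.62 (SE 0.26, the authors' p = 0.0189), a gap of 1.14, and weighting the copies by mean gave -0.07. Mirlet7c-1 and Mirlet7c-2 stood at -0.29 (SE 0.28) and 0.61, and their weighted value was -0.03. Mir19b-2 and Mir19b-1 stood at -0.05 (SE 0.27) and 0.77, weighted 0.21.

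These pairs were described for their wide gaps in spleen, and in the other organs most of them lay closer together. The gap between Mir103-2 and Mir103-1 was 0.10 in brain, -0.05 in heart, -0.03 in kidney and 0.08 in liver, in the authors' deposited tables. The gap between Mirlet7c-2 and Mirlet7c-1 was -0.07 in brain, -0.02 in heart, -0.01 in kidney and 0.28 in liver. Mir19b-1 also exceeded Mir19b-2 in brain, by 0.92. A further wide pair, Mir365-2 and Mir365-1, had a gap of 0.95 in spleen and of -0.82 in brain. In heart, kidney and liver that gap was 0.27, 0.03 and -0.05. Mir7094-2 and Mir7094-1, with a gap of 1.09 in spleen, were not compared across organs. Some other copies parted more in brain than in spleen. The gap between Mir26a-2 and Mir26a-1 was -0.85 in brain and -0.17 in spleen, and that between Mir125b-2 and Mir125b-1 was 0.59 and 0.03. Copies were not tested against each other, because identical mature reads can be assigned to either copy and the treatment of such reads is not given in the sources used here. Mir19b-1, Mirlet7c-2, Mir103-2 and Mir181b-1 (-0.53, SE 0.25, the authors' p = 0.0358), each with an unadjusted p below 0.05, are precursors with a twin. The share of twinned precursors among all tested features was not counted, so this is a description.

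Features with Gm symbols leaned to the positive side. They hold 2.06% of the spleen total, led by Gm54610 at 1.12% and Gm54588 at 0.577%, and RefSeq gave no mature sequence for them. Of the 48 with a mean of at least 10, 40 were positive and 8 negative, with a median of 0.50, against 183 positive of 401 Mir and Mirlet features, with a median of -0.03. An unadjusted p below 0.05 was reached by 11 of the 48 (22.9%), all positive, and by 11 of the 401 (2.74%), against 3.48% over all features.

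The lean was seen at each abundance above 10. It covered 25 of 28 Gm features with a mean of 100 or more and 15 of 20 below that. Gm54610 had 0.56 (SE 0.25, the authors' p = 0.0265), Gm54588 had 0.64 (SE 0.27, the authors' p = 0.0191) and Gm55532 had 0.93 (SE 0.31, the authors' p = 0.00293). Gm54611 and Gm55276, both with means above 1000, had 0.71 (SE 0.28) and 0.70 (SE 0.28). Gm54609 was the most abundant negative one, at -0.45 (SE 0.24, the authors' p = 0.0602). Mir6236, at 1.02% of the total, had 0.50 (SE 0.27, the authors' p = 0.0643). In the other organs the positive count of Gm features at a mean of at least 10 was 35 of 43 in heart, 24 of 30 in liver, 20 of 36 in kidney and 18 of 31 in brain, if the numerator was the same genotype throughout.

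For low features the reads of each library could be worked out, because a deposited mean adds up whole reads that were each scaled by 1 of 6 size factors. A single split was found for 927 of the 940 features with a mean of up to 100, and 13 had more than 1. The size factors were 1.52, 0.743 and 0.628 for the positive side and 1.49, 1.10 and 0.884 for the negative side, so the 2 shallowest libraries were both on the positive side. The libraries cannot be tied to single mice. For the 169 recovered features with a mean of 10 to 100, the recovered fold differed from the deposited one by a median of 0.02 and at most 0.11 on the log2 scale. Above a mean of 8 only splits near the deposited fold were searched. A small difference was therefore partly built in, and it is not an independent check of the recovered reads.

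Among recovered Gm features the 2 shallow libraries held the highest shares. Over the 20 recovered Gm features with a mean of 10 to 100, the median share of a feature's normalized reads was 14.1%, 20.3% and 23.1% in the 3 positive libraries and 15.5%, 14.5% and 10.8% in the 3 negative ones. The first positive library thus lay within the range of the negative side, and the other 2 lay above it. Over the Mir features of that range the same median differed between the 6 libraries by less than 1 percentage point, from a lowest value of 15.1%. Without any 1 library, between 13 and 16 of the 20 Gm features were higher on the positive side, against 15 with all 6. The median log2 fold of these 20 was 0.61 with all libraries and ran from 0.40, without negative library 2, to 0.83, without positive library 1. Without both shallow libraries, a comparison added after seeing the data that leaves 1 library on the positive side, 10 of the 20 Gm features were higher there and the median log2 fold was 0.01. The part of depth in this pattern was not tested.

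**Figure D4:**
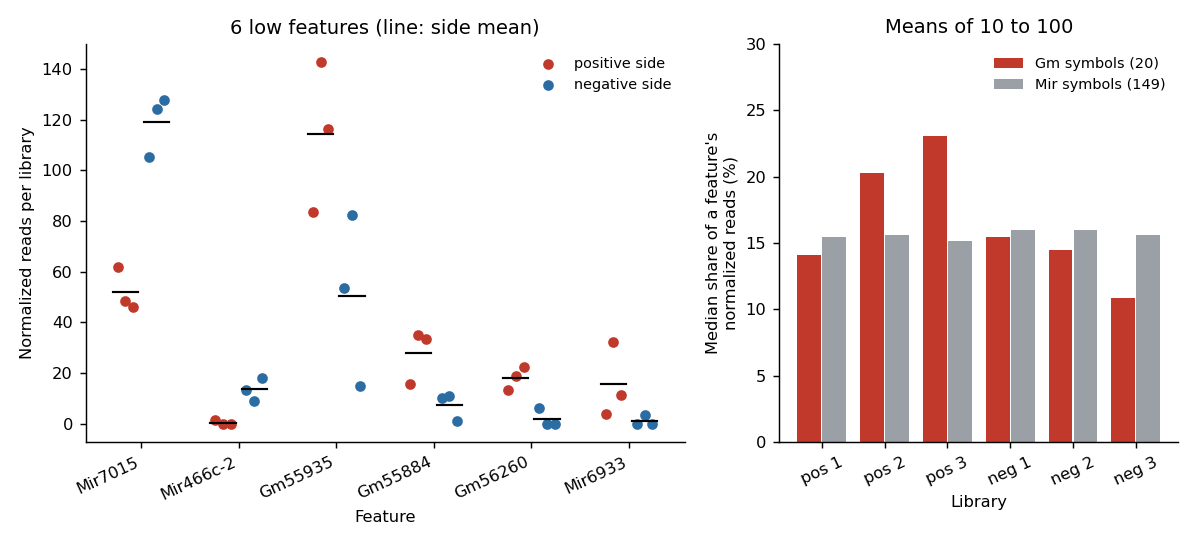
Left, normalized reads per library (vertical axis) of 6 low features, with 3 positive-side libraries in red, 3 negative-side libraries in blue and side means as lines; right, the median share of a feature's normalized reads (vertical axis, %) in each library for Gm and Mir features with a mean of 10 to 100. Mir7015 and Mir466c-2 are higher in all 3 negative libraries, and the Gm bars reach 20.3% and 23.1% in positive libraries 2 and 3 alone.

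Mir7015 had the smallest p among negative features. Its normalized reads were 61.8, 48.5 and 46.2 in the positive libraries and 105.5, 124.2 and 127.9 in the negative ones. The sides did not overlap, with means of 52.2 ± 8.42 and 119.2 ± 12.02 (SD, n = 3 each). Its deposited log2 fold change was -1.18 (SE 0.41, the authors' p = 0.00392, adjusted p 0.988). Leaving out any 1 library gave values from -1.33 to -1.11.

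Among the 169 recovered features with a mean of 10 to 100, the libraries of the sides did not overlap for 14, which is 8.28%, with 8 positive and 6 negative. They included Gm55935, with 83.5, 142.7 and 116.3 normalized reads against 53.7, 82.5 and 14.7. Gm55884 had 15.8, 35.0 and 33.5 against 10.1, 10.9 and 1.13. With 3 libraries against 3, a single exact permutation test cannot go below p = 0.1. Libraries in random order would separate at that same rate of 0.1, so separation of this kind is a description.

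Below a mean of 10 the unadjusted p-values rested on few reads. Of the 42 features with an unadjusted p below 0.05, reads were recovered for 24, and 15 of these had a side with 0 reads. Mir466c-2, of the Sfmbt2 array, had 2, 0 and 0 reads in the positive libraries against 20, 10 and 16 in the negative ones, a depth-adjusted ratio of 19.1 with an exact 95% counting interval from 5.01 to 163. Mir3618 and Gm56186 had the same values in every column, with 0, 6 and 12 reads against 0, or at least 10.5-fold higher when 3 reads over the empty side are taken as its limit. Mir7115, Mir7235, Mir7026, Gm56363, Gm55696 and Mir1953 were also among the 10 smallest negative p-values, each with a mean under 10. All 23 reads of Mir1953 lay in 1 negative library. Mir6933, with 3.94, 32.3 and 11.2 normalized reads against 0, 3.63 and 0, was higher in all 3 positive libraries. These intervals and limits cover counting error only. Of the recovered values of at least 2 reads, 64.3% were even, and whether both mates of a fragment were counted is not given in the sources used here. If they were, the reads above stand for fewer fragments, the interval is too narrow and the at-least fold too high.

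A further group stood out by the size of its SE. At means of at least 1000 the median SE was 0.24, but Mir375 had 0.90, Mir802 had 0.89, Mir216a had 0.88 and Mir217 had 0.80, which is 3.36 to 3.78 times the median. The next highest were Mir429 and Mir200c, at 1.61 times. Mir375, Mir216a and Mir217 are the abundant members of the pancreas list, and Mir802 is known from liver and pancreas. Their log2 fold changes were -0.23, 0.32, -0.66 and -0.54 in that order of SE, with intervals that each spanned more than 3 units. Mir6969 had a similar SE of 0.98 at a mean of 283.3. Reads of single libraries could not be recovered at these means, so values per mouse are not known for them.

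**Figure D5:**
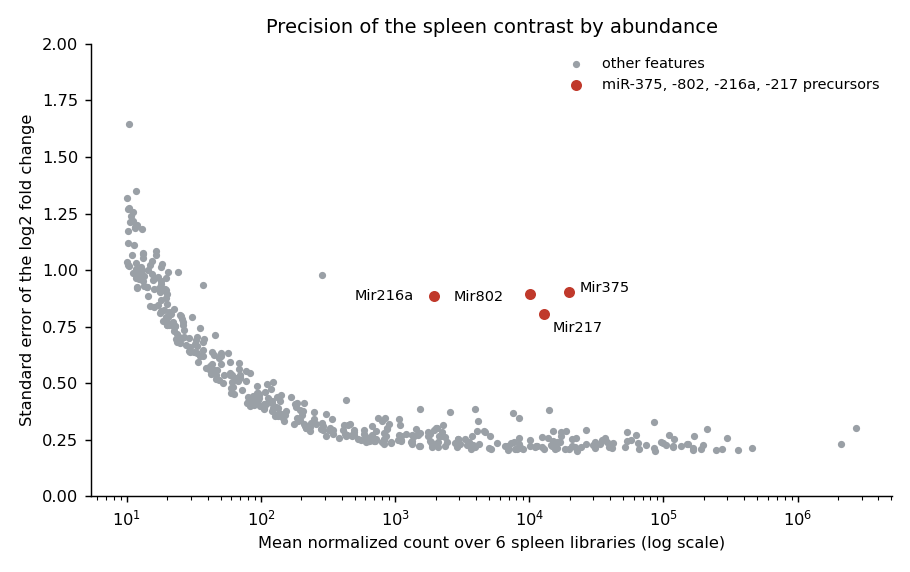
SE of the log2 fold change (vertical axis) against the mean normalized count (horizontal axis, log scale) for 450 features with a mean of at least 10. Mir375, Mir802, Mir216a and Mir217 (red) sit between 0.80 and 0.90, above the band near 0.24 that other features with a mean of at least 1000 follow.

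The spleen contrast was set against each other organ by the difference of fold changes over their combined SE. This takes the numerator to be the same genotype and treats organs of the same mice as independent, neither of which could be checked. No feature passed an adjusted p of 0.05 (z test with Benjamini-Hochberg adjustment): 0 of 875 against brain, 0 of 959 against heart, 0 of 904 against kidney and 0 of 790 against liver, or 0.0% each. The unadjusted p was below 0.05 for 20, 28, 37 and 25 features in that order. The smallest adjusted p-values were 1.00, 0.571, 0.308 and 0.154.

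Mirlet7c-2 gave the smallest p against heart and kidney. Its log2 fold change was 0.61 in spleen against -0.80 (SE 0.32) in heart and -1.63 (SE 0.57) in kidney, differences of 1.41 (adjusted p 0.571) and 2.24 (adjusted p 0.308). Mir125a was 0.39 in spleen and -1.77 (SE 0.62) in kidney, a difference of 2.15 (adjusted p 0.623). Against brain Mir7j led, with a difference of 1.47 (adjusted p 1.00). Against liver the smallest p was that of Mir6969, at -0.09 in spleen and 8.20 (SE 2.00) in liver (adjusted p 0.154). Mir6988 came second, at 0.54 (SE 0.41) in spleen and -1.97 (SE 0.77) in liver (adjusted p 0.914). Mir216a followed, at -0.66 and 6.52 (SE 2.35, adjusted p 0.914 in the z test). For Mir216a, Mir217 and Mir375 in liver the authors gave a fold change and SE but no p-value, so these liver values carry no test of theirs. Mir6969 and Mir216a also had a wide SE in spleen, given above, and Mir6988 was not among those features.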

How the data were processed

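Per the labels' protocols, RNA was taken from frozen, ground tissue with a phenol reagent and made into NEXTflex small RNA libraries. The authors used featureCounts (Subread 2.0.3), the GRCm39 build and DESeq2, going by the submitters' processing notes. No source used here gives the aligner, the annotation, the strand setting, the handling of reads that match several features, or the authors' DESeq2 model.

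The authors deposited the mean as a signal, a mean of reads over size factors. The deposited fold change and its SE are log2 values, the deposited statistic is a score, and the deposited p-value, with its adjusted form, is that of the statistic, all per the file headers. The number of columns with values per library was 0, so the planned count test could not be run and the authors' adjusted p at 0.05 was used. The row with no name was left out.

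Computed here (Python 3.11.15, numpy 2.4.6, pandas 2.3.3, scipy 1.17.1) were shares, list and cluster medians over members with a mean of at least 10, 95% intervals (1.96 SE), and z tests between organs. Size factors were found from means under 1, all 330 of which they explained, and means up to 100 were then split into whole reads at a relative tolerance of 4e-15. Above a mean of 8 the search was limited to splits near the deposited fold. The splitting and the z tests were checked on simulated data. For the splitting these data held low means only, not the full range up to 100. The simulated folds came from the simulated reads themselves, so the limited search was not put to the test. The reference is GRCm38, so no coordinates are given and it supplied names, sequences and neighbours only.

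Named features were the 10 smallest p of each sign, the 10 highest means, 2 leaders of each list with any member at p below 0.05, leaders of abundance classes and of organ differences. Mir6236, Gm54609, Mir126b, the copies and the wide-SE features were named after their values were seen. The members and lists were chosen with earlier results of these data known.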

Additional observations from a re-analysis of the deposited data

Results flagged for a closer look

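The spleen table held 1 row with no feature name, outside every comparison above. Its mean normalized count was 1.2, from 6 recovered reads, 4 in 1 positive library and 2 in 1 negative library, which is above the limit of 3 reads that a count of 0 allows. Its p-value was 0.665.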

How the results depend on the processing

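The count of 0 features past an adjusted p of 0.05 stayed at 0 when p-values were adjusted anew over all features, over Mir symbols, over means of at least 10 and over means of at least 1000, with smallest adjusted p-values of 0.989, 0.994, 0.520 and 0.367. The count of 42 features with an unadjusted p below 0.05 was 22 at means of at least 10, 27 for Mir symbols and 10 at means of at least 1000. The 32 positive ones were 19, 19 and 8 under these settings, and the 10 negative ones were 3 and 2 under the mean limits. Fewer features are tested under each. Differences between organs stayed at 0 calls at means of at least 10 in both organs and with Holm adjustment. Under that mean limit the smallest adjusted p-values (z test, Benjamini-Hochberg) were 0.499 against brain, 0.225 against heart and 0.131 against kidney. Against liver the smallest was 0.0683, for Mir6969. Of 37 list and cluster medians, 1 changed sign at means of at least 100 (the Mir379 cluster) and 0 did under the other settings, one of which, leaving out overlapped precursors, was added after seeing the data. Without Mir143 in the total, the leukocyte share was 4.78%, the vessel and smooth muscle share 2.35%, the let-7 share 16.5% and the pancreas share 0.432%. Leaving out a library, also added after seeing the data for the Gm and Mir counts, gave 13 to 16 of 20 Gm features and 68 to 78 of the Mir features of that range higher on the positive side, and leaving out the 2 shallowest together gave 10 and 60.

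No paired analysis was possible because the deposited table holds no value per library and the recovered libraries cannot be tied to mice, so the brothers shared between the genotypes could not be used as a block. DESeq2 or edgeR on counts was not run, since the deposited values are not counts. With 3 mice per genotype, effects under about 0.45 on the log2 scale lie within a typical interval even for the most abundant features, and at means of 1 to 10 the median interval reaches 4.49 units to either side.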

Other observations

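The recovered reads were even more often than odd. Among 2533 values of at least 2 reads in a library, 1629 were even (64.3%). A count of exactly 2 was seen 408 times and a count of 4 was seen 251 times, both more often than a count of 3, and a count of 5 was seen 99 times. Among 657 values of at least 20 reads, 52.8% were even. The labels name a forward and a reverse read per library, but whether both mates of a fragment were counted is not given in the sources used here, and the cause was not tested.

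Some features carried identical values. At means of at least 1 there were 12 sets of features with the same mean. The set of Mir3618 and Gm56186 had a mean of 4.53 and the set of Mir6928 and Mir7039 a mean of 3.08, with unadjusted p-values of 0.0108 and 0.0349. The 4 features in these sets are counted separately among the 42 with an unadjusted p below 0.05.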
